A study of Rattus norvegicus with 6 samples.

Results

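Bdnf, which encodes the secreted neurotrophin BDNF, and Ntrk2, which encodes its receptor TrkB, were followed in rat superior colliculus, in its superficial layers, which take input from the retina. They are 2 of the 26402 gene identifiers (IDs) in the expression table and were taken by Ensembl ID, ENSRNOG00000047466 for Bdnf and ENSRNOG00000018839 for Ntrk2. All animals were Sprague Dawley rats of postnatal day 20. In 3 libraries of polyadenylated RNA the lids had been held shut with glue from day 14 to day 20 (closed), and in 3 libraries the eyes were open over those days (open). Each group had 1 library from each of batches A, B and C, so the libraries can be paired by batch; the number of animals behind each library, and what a batch shares, are not stated in the labels. The comparison asks whether transcript levels in this visual layer differ when the lids stay shut.

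BDNF is made as a precursor, released from neurons and cleaved to a mature form that binds TrkB. TrkB is a receptor tyrosine kinase that signals through the MAP kinase, PI3 kinase and phospholipase C gamma pathways, and it is also made as truncated forms without a kinase domain, which are abundant in astrocytes. The Bdnf gene has several promoters, each with its own first exon spliced to a shared coding exon, and some of them respond to neuronal activity. In visual areas, Bdnf is widely studied for its response to light and for its part in the maturation of synapses.

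A start-site window of Bdnf is shown because activity-dependent transcription of the gene is known to act through elements next to its start sites. RefSeq, on the build GRCr8, gave 6 start-site windows for Bdnf, each of 300 bases; the table of windows used here has no entry for Ntrk2. Of these, 1 window held CGTCA, the core of a cAMP response element, on either strand. Its 250 bases before the start site lie on the plus strand at chr3:116637608-116637857 and are printed with that core in capitals.

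Bdnf start-site window 4: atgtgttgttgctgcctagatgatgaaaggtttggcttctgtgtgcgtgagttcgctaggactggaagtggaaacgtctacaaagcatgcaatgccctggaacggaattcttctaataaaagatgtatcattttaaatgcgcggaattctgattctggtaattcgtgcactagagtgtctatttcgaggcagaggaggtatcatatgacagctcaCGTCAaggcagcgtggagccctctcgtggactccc

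The core begins 35 bases before the start site. CGTCA occurred in 21.2% of all 33469 RefSeq start-site windows of that length. The full element TGACGTCA, which contains the core, was in 0 of the 6 Bdnf windows and in 1.83% of all windows, and the E-box CACGTG was in 1 Bdnf window and in 6.42% of all. These matches describe the sequence only. The expression table has 1 value per gene, so transcripts from this window and from the other start sites of Bdnf were not told apart, nor were kinase and truncated forms of TrkB. RefSeq lists 11 transcripts for Bdnf, 10 of them curated, and 14 for Ntrk2, 2 of them curated.

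Bdnf was present at a low and even level in all 6 libraries, and it did not differ detectably between closed and open eyes. With closed eyes, Bdnf stood at 2.09 FPKM (fragments scaled by transcript length and library size) in batch A, 2.43 FPKM in batch B and 2.24 FPKM in batch C. With open eyes it stood at 2.51 FPKM in batch A, 2.05 FPKM in batch B and 2.22 FPKM in batch C. Both the highest and the lowest library were from the open group, and the closed values lay between them. The group means were 2.25 ± 0.175 FPKM for the closed group (SD, n = 3) and 2.26 ± 0.233 FPKM for the open group (SD, n = 3). From highest to lowest the libraries ranked open A, closed B, closed C, open C, closed A and open B, and the whole range was 1.22-fold, so the order does not part the groups.

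Ntrk2 was an abundant transcript, and its mean was slightly lower with closed eyes by less than the spread between libraries. With closed eyes, Ntrk2 stood at 46.2 FPKM in batch A, 40.8 FPKM in batch B and 46.6 FPKM in batch C. With open eyes it was 48.5 FPKM in batch A, 48.5 FPKM in batch B and 43.3 FPKM in batch C. Closed B was the lowest library and open C the next lowest, while open A and open B were the highest, so the groups overlapped. The group means were 44.5 ± 3.24 FPKM for the closed group (SD, n = 3) and 46.8 ± 3.04 FPKM for the open group (SD, n = 3), and the range over all libraries was 1.19-fold.

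**Figure D1:**
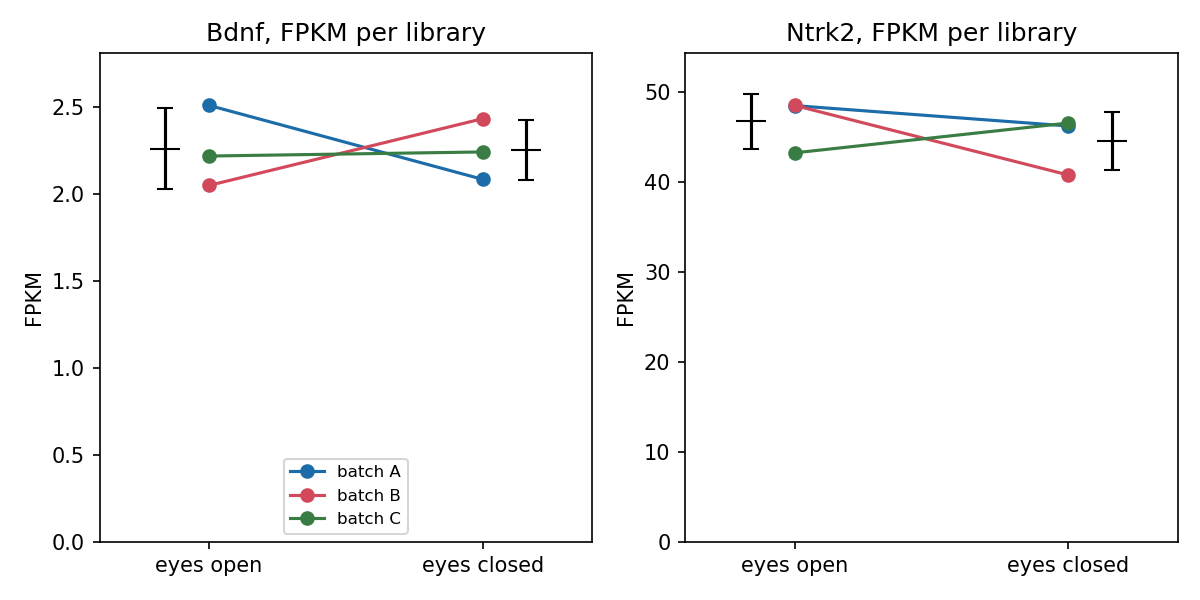
Bdnf (left) and Ntrk2 (right) in FPKM on linear axes that start at 0, with 1 point per library, lines joining the open and closed library of a batch, and black bars for the mean and SD of each group (n = 3). The lines of batches A and B cross for Bdnf, and for Ntrk2 the line of batch B falls while that of batch C rises.

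Paired by batch, neither gene moved one way in all 3 batches. Bdnf differed between closed and open by -0.22 in batch A, 0.20 in batch B and 0.01 in batch C, on the log2(FPKM + 0.5) scale. In batch A its FPKM was thus lower with closed eyes by an amount close to the excess in batch B, and in batch C the libraries were nearly equal. Ntrk2 differed by -0.07 in batch A, -0.25 in batch B and 0.11 in batch C on the same scale, so that closed was below open in A and B and above it in C. In batch B the ligand was higher and the receptor lower with closed eyes. Among the 12351 IDs tested (mean FPKM of 1 or more), 27.9% moved one way in all batches, and closed and open libraries did not overlap in 3.02%. Both genes are outside both sets.

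Bdnf and Ntrk2 both missed the threshold of the test of closed against open, and the 95% intervals give the range of differences that each fit admits. For Bdnf, limma gave a closed-minus-open log2 difference of -0.0017 (SE 0.12, adjusted p = 0.99997 with Benjamini-Hochberg adjustment over all 12351 IDs). Its 95% interval ran from 0.820-fold to 1.22-fold, and from 0.840-fold to 1.19-fold with batch as a block (adjusted p = 0.998 in limma). For a gene as low as Bdnf, these limits understate the fold in FPKM itself. The Bdnf estimate is thus near 0 because opposite differences in batches A and B cancel, and the interval still admits changes of up to about that size in either direction.

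For Ntrk2, limma gave a log2 difference of -0.07 (SE 0.13, adjusted p = 0.99997), with a 95% interval from 0.777-fold to 1.17-fold on the same scale. With batch as a block the interval narrowed to 0.846-fold to 1.07-fold (adjusted p = 0.853 in limma). The intervals are per gene and are not adjusted for the number tested.

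As background for these tests, limma without the block called 0% of the 12351 IDs at an adjusted p under 0.05, and 0.542% had an unadjusted p under 0.05. With batch as a block it called 1 ID, 0.0081%, and 6.32% had an unadjusted p under 0.05. Without the block, differences between batches stay in the error of the fit, so its 0% called does not show equal levels. Bdnf and Ntrk2 had unadjusted p of 0.989 and 0.595 in limma without the block and 0.988 and 0.376 with it. All p-values refer to the spread among these 6 libraries, which may be technical. In bulk tissue, fewer cells that express a gene and less of its RNA per cell cannot be told apart.

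**Figure D2:**
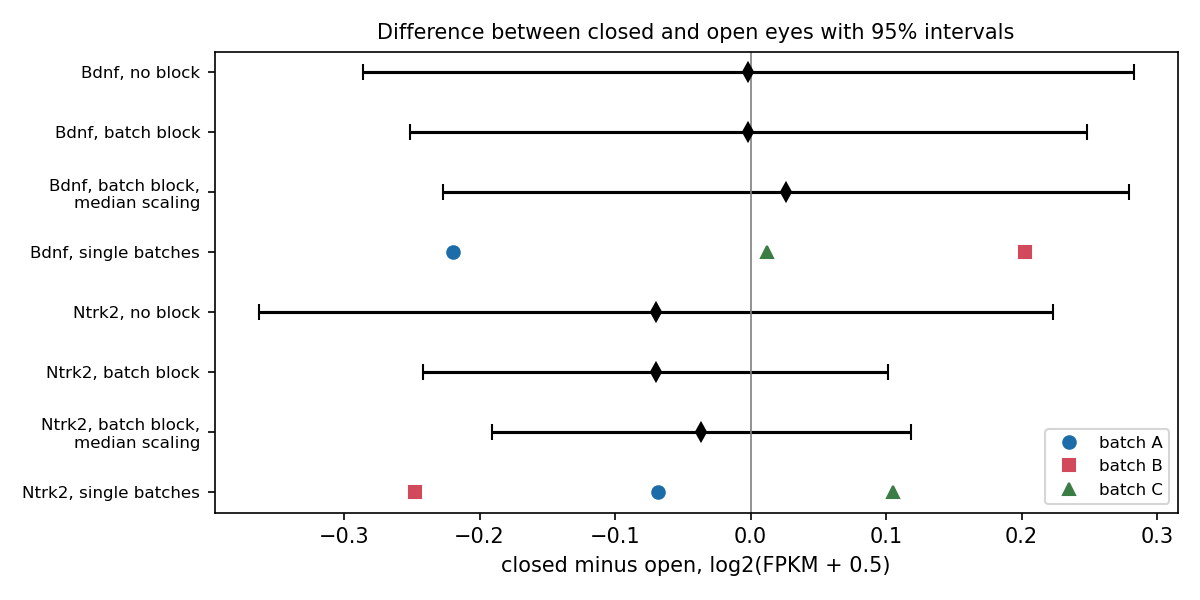
Closed-minus-open difference on the log2(FPKM + 0.5) scale, with diamonds and bars for the limma estimate and its 95% interval, and coloured markers for the difference in each batch. All intervals include 0, and the batch markers of both genes lie on both sides of it.

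Scaling of the libraries shifted these small differences. Batch C had the lower library medians: the median FPKM over the tested IDs was 8.03 in closed C and 7.88 in open C, against 8.96 to 9.39 in the other libraries. Relative to its library's median, Bdnf was 0.233 in closed A, 0.272 in closed B and 0.279 in closed C, and 0.267 in open A, 0.219 in open B and 0.281 in open C. The groups overlapped on this scale too, and the Bdnf difference became 0.03 on the log2 scale, with closed the higher. Ntrk2 was 5.16, 4.55 and 5.80 times the library median in closed A, B and C and 5.17, 5.19 and 5.49 times in open A, B and C. On this scale closed A equalled open A within 1% and closed B remained the lowest, and the Ntrk2 difference was -0.04.

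In the authors' deposited table, which compares the same libraries by counts, neither gene was called. With the sign turned to closed over open, the authors' deposited table gave Bdnf a log2 fold of 0.03 (p = 0.759, adjusted p = 0.99992) and Ntrk2 a log2 fold of -0.03 (p = 0.622, adjusted p = 0.99992), from the tool DESeq2. The signs match those of FPKM after median scaling, while unscaled FPKM gave Bdnf a log2 difference of -0.0017 in limma. The sign was turned by comparison with the same FPKM values, so this match is not independent. Of the 20347 IDs with a p-value in the authors' deposited table, 0.0344% had an adjusted p under 0.05, and 2.4% had an unadjusted p under 0.05. It rests on the same libraries and is not a second measurement.

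The receptor transcript was far more abundant per length than the ligand transcript in every library. The Ntrk2 to Bdnf ratio of FPKM levels was 22.2 in closed A, 16.8 in closed B and 20.8 in closed C, and 19.3 in open A, 23.7 in open B and 19.5 in open C. Both extremes were in batch B, the lowest with closed and the highest with open eyes, and the groups overlapped. The means were 19.9 ± 2.81 for the closed group (SD, n = 3) and 20.8 ± 2.46 for the open group (SD, n = 3). The plain FPKM ratio within a library does not depend on library scaling, whereas the added 0.5 makes the log2 form below depend on it to some degree. As log2((Bdnf + 0.5)/(Ntrk2 + 0.5)), closed minus open was -0.15 in batch A, 0.45 in batch B and -0.09 in batch C. The mean difference of 0.07 did not pass an exact permutation test, two-sided, with p = 0.7 unpaired and p = 1 paired by batch, where the smallest possible values are 0.1 and 0.25. The sign of the mean difference came from batch B, since the mean was -0.12 without that batch.

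**Figure D3:**
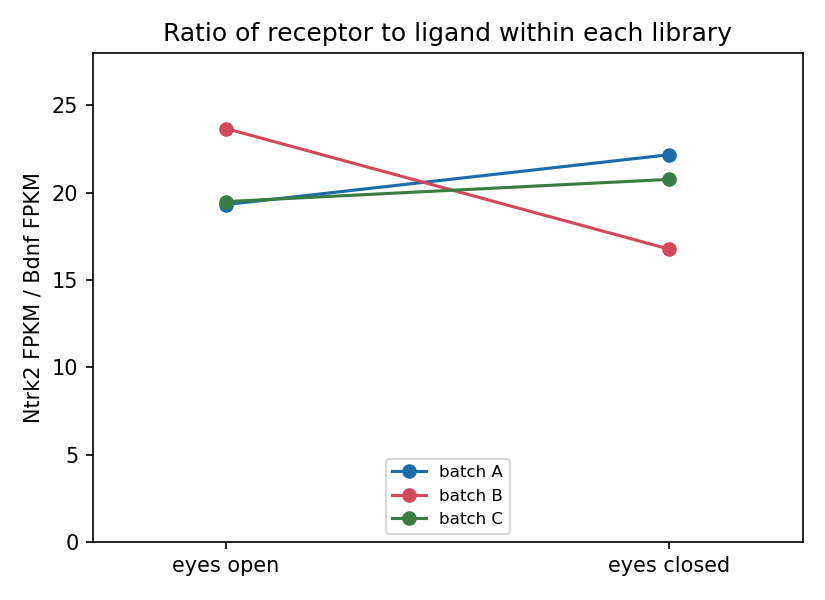
Ntrk2 FPKM divided by Bdnf FPKM in each library, on a linear axis from 0, with lines joining the open and closed library of a batch. The ratio lies between 16.8 and 23.7 in all 6 libraries, and batch B falls where batches A and C rise.

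Among the tested IDs, Bdnf lay low and Ntrk2 high in abundance, and both varied less than most IDs before scaling of the libraries. By mean FPKM, Bdnf (2.26 FPKM over all libraries) was above 12.9% of the 12351 IDs, and Ntrk2 (45.7 FPKM) was above 91.1%. The SD over the 6 libraries on the log2(FPKM + 0.5) scale was 0.096 for Bdnf and 0.098 for Ntrk2, against a median of 0.179 over all tested IDs. Only 12.1% of IDs varied less than Bdnf by this measure and 13% less than Ntrk2. The pseudocount compresses the SD of a low gene such as Bdnf more than that of Ntrk2. The libraries were not scaled for these SDs, so the lower medians of batch C enter them and the median over all IDs. The spread after scaling was not ranked.

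Without scaling of the libraries, neither gene was called between batches, and the shares of variation do not by themselves show a batch effect. In limma, 49.7% of the tested IDs passed an adjusted p under 0.05 between batches, and neither Bdnf (adjusted p = 0.973) nor Ntrk2 (adjusted p = 0.642) was among them. For Bdnf, batch took 2.56% of the sum of squares over the 6 libraries, eye condition 0.0094% and the remainder 97.4%. For Ntrk2 these were 19.5%, 15.4% and 65.1%. The shares are not adjusted for degrees of freedom, and error between libraries also enters those of batch and eye condition. The remainder is the part in which the closed-minus-open difference varies from batch to batch, and with 1 library per batch and group it cannot be told apart from error between libraries. The batch test and the shares used unscaled FPKM, with the lower medians of batch C left in. Relative to the library median, batch C was highest in each group for both genes. Ntrk2 was 5.80 in closed C and 5.49 in open C, against 4.55 to 5.19 in the other libraries. Bdnf was 0.279 in closed C and 0.281 in open C, against 0.219 to 0.272. Differences between batches on that scale were not tested.

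The depth behind the values differed strongly between the genes. The mean normalized count in the authors' deposited table was 187 for Bdnf and 7451 for Ntrk2. If each library held about that many reads, counting error alone would be 7.31% of the value for Bdnf and 1.16% for Ntrk2. The spread between libraries of one group was 7.75% (closed) and 10.3% (open) of the mean for Bdnf, close to that counting error. For Ntrk2 it was 7.28% and 6.50%, several times the counting error. The depth of each library is unknown, so the part of counting error in either spread was not tested.

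**Figure D4:**
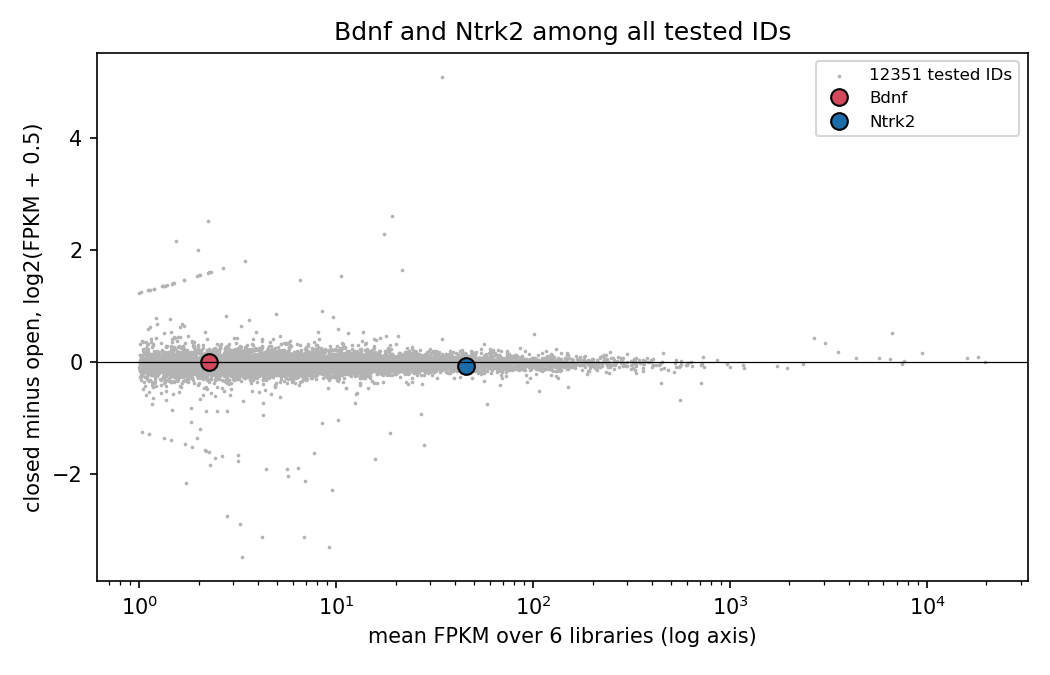
Closed-minus-open difference on the log2(FPKM + 0.5) scale against mean FPKM (log axis) for the 12351 tested IDs in grey, with Bdnf in red and Ntrk2 in blue. Both genes lie within the dense band around 0, Bdnf toward the low end of abundance and Ntrk2 toward the high end.

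The ID whose log2 values were most like those of each gene over the 6 libraries was taken as a description, by Pearson correlation. For Bdnf it was ENSRNOG00000025189 (r = 0.965), at 1.97, 2.19 and 2.02 FPKM in closed A, B and C and 2.19, 1.92 and 2.09 FPKM in open A, B and C. It shared with Bdnf the low open B and closed A. For Ntrk2 it was ENSRNOG00000005136 (r = 0.994), at 2.15, 1.497 and 2.22 FPKM in closed A, B and C and 2.48, 2.63 and 1.78 FPKM in open A, B and C, with the same low closed B and open C. The low libraries shared with each match follow from picking it by correlation. Of 12350 other IDs, 9 correlated above 0.9 with Bdnf and 64 with Ntrk2, over libraries that share batches and scaling. With only 6 libraries, unrelated IDs can also correlate this highly. The counts were not compared with the number so expected and show no link between genes. Bdnf and Ntrk2 themselves correlated at -0.29.

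The other genes of the neurotrophin pathway (further ligands, receptors, processing enzymes, adaptors and induced genes) and the markers of the tissue were not analysed here, because the reference table pairs 0 Ensembl IDs with symbols. The names Bdnf and Ntrk2 were given with their IDs. By gene span, 0 other RefSeq gene models overlap Bdnf and 7 overlap Ntrk2, all of them long noncoding RNAs. Overlap of exons was not checked, and no source used here gives the strand setting of the counting. Whether reads of such models entered the Ntrk2 value was not tested.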

How the data were processed

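Gene levels came from FPKM that the authors deposited for 26402 Ensembl IDs in 6 libraries. The authors also deposited a comparison with 1 signal per ID (read from its scale as a mean normalized count), the log2 fold, and p-values before and after adjustment. The submitters' processing notes name STAR 2.3.14z, featureCounts 1.4.4, Cufflinks 2.1.1, DESeq2 1.4.1 and build rn5, with no roles. The deposited comparison is named closed against open, but its log2 fold ran against FPKM (Spearman -0.765 across 11147 IDs). It was therefore taken as open over closed and turned. Depth per library is unknown. limma 3.58.1 in R 4.3.3 was fitted to log2(FPKM + 0.5) over all 12351 IDs whose mean was 1 FPKM or more (trend and robust moderation; Benjamini-Hochberg threshold 0.05; tests two-sided), and tested on simulated data. Folds on this scale understate changes of low genes. The batch label pairs libraries, and deviations from group means correlated at 0.361 to 0.525 within a batch. Blocked values stand beside the main ones. The members, lists and rules were chosen with earlier results of these data known. By rule, both members and the 1 ID most like each were named.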

Additional observations from a re-analysis of the deposited data

How the results depend on the processing

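Neither gene was called under any alternative tried, 23 for Bdnf and 24 for Ntrk2, with adjusted p in limma from 0.973 to 1 and from 0.395 to 1. The filter at a mean of 5 FPKM removed Bdnf before testing. The sign of the Bdnf log2 difference is not settled: it was 0.026 with median scaling, without and with the replicate block, 0.0200 with upper-quartile scaling and 0.040 with quantile scaling, and 0.107 with both libraries of batch A left out, again with and without the block. Leaving out single libraries gave -0.057 to 0.063 for Bdnf and -0.12 to -0.0089 for Ntrk2. The Ntrk2 difference turned only with both libraries of batch B left out (0.019, paired or not). The Bdnf to Ntrk2 ratio turned there too (-0.122, paired or not), and single libraries left out gave -0.039 to 0.14. Over all IDs, limma called 0 in the main setting, 1 with the replicate block at pseudocounts of 0.5, 0.1 and 1 but 0 with the block and median scaling, 0 to 3 with single libraries left out, 3, 5 and 3 with batch A, B or C left out, and 6, 16 and 2 with the block as well. The deposited calls fell from 7 to 4 when limited to the IDs tested in limma. The cause was not tested. The block changed no call of either gene.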
